A study of Mus musculus with 3 samples.

Results

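The genes described are 10 members of cyclic AMP (cAMP) and prostaglandin signalling, Gnas, Creb1, Crem, Pde4b, Pde4d, Ptgs2, Ptges, Ptger4, Rgs2 and Dusp1, out of 32285 gene rows in the count matrices. They were chosen by name for their roles in cAMP production, cAMP breakdown, output through the transcription factor CREB, and prostaglandin synthesis and reception. All 10 had a gene row. Their levels were followed through the cell types of fracture callus, the repair tissue that bridges a broken bone, in 3 single-cell RNA-seq libraries.

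All libraries came from callus of female C3H/HeJ mice, which were 9 weeks old at surgery and are named in the design text as a strain that heals slowly. The femoral shaft was pinned and broken, and callus was taken on day 7. Control mice received vehicle (PBS). PTH mice received parathyroid hormone residues 1 to 34, at 100 µg/kg, and YKL mice received YKL-05-099, an inhibitor of salt-inducible kinases, at 15 mg/kg, all by daily injection under the skin. There was 1 library per group, and the labels do not say how many animals went into each. Marrow was avoided at dissection, and cells were released with 0.2% collagenase at 35 °C for 15 min, a step that can itself change immediate early genes.

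As background, hormones such as PTH act on receptors that couple to the stimulatory G protein alpha subunit encoded by Gnas, which switches on adenylyl cyclase. The cAMP made activates protein kinase A, which phosphorylates CREB, and which also inhibits the salt-inducible kinases that hold CREB coactivators out of the nucleus. Prostaglandin E2, made from arachidonic acid by the cyclooxygenase Ptgs2 and the synthase Ptges, feeds back on cells through receptors that include Ptger4, itself coupled to cAMP. In fracture repair, cyclooxygenase activity is known to be needed for normal healing.

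The control, PTH and YKL libraries gave 2928, 1907 and 600 cells after filtering, with median totals of 11681, 12280 and 25686 unique molecular identifiers (UMIs) per cell. The YKL library was thus the smallest and its cells the deepest. Median mitochondrial shares were 3.23%, 4.65% and 1.74%. The libraries shared 8, 3 and 2 barcodes pairwise (control with PTH, control with YKL, PTH with YKL), of which 1, 0 and 0 were kept cells. Clusters were made without the 10 genes and named from cell type markers. Chondrocyte-like cells numbered 1576, 722 and 426 in control, PTH and YKL, and endothelial-like cells 157, 280 and 50. Summed over 14 chondrocyte markers, chondrocyte-like cells held between 77169 and 84262 CPM, the usual depth-corrected unit in which a gene's UMIs are scaled by all UMIs of the class. Endothelial-like cells held between 411 and 1417 CPM of the same markers, and neutrophil-like cells 9298, 916 and 1528 CPM in control, PTH and YKL. The osteoblast-lineage-like class held more, between 14603 and 15881 CPM. In the opposite direction, 12 endothelial markers summed to between 10389 and 12309 CPM in endothelial-like cells and to between 15.9 and 55.1 CPM in chondrocyte-like cells. Other classes were smaller. Neutrophil-like sums rested on 442, 21 and 16 cells, fibroblast or mesenchymal progenitor-like sums on 114, 288 and 17, osteoblast-lineage-like sums on 38, 64 and 18, and macrophage or monocyte-like sums on 184, 106 and 30, in the order control, PTH, YKL. Tendon-like cells came almost only from the PTH library (241 of its cells, against 3 control and 2 YKL cells).

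The cAMP response element, the sequence to which CREB binds, has the full form TGACGTCA and the short form CGTCA, which lies within the full form. Both strands of the 250 bases before each RefSeq start site (GRCm38.p6, the build of the count files) were searched. The full form was found in 1.55% of 32851 promoters, and the short form in 17.8%. A RefSeq promoter was used for 9 of the 10 genes. Of these, 1 held the full form (Dusp1) and 4 held the short form (Gnas in 3 of its 4 promoters, Pde4b in 1 of 4, Rgs2 and Dusp1). The stretches of the 2 genes whose single promoter held more than one match are shown because both genes are textbook targets of cAMP signals. They are written 5′ to 3′ on the gene's strand, with the response element letters in capitals.
Dusp1: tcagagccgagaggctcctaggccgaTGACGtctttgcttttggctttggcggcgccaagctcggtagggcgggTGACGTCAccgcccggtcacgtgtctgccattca
Rgs2: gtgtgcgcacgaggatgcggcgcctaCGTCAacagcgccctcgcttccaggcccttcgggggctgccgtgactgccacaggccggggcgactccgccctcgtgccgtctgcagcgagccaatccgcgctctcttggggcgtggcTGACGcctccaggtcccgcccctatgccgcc
The Dusp1 stretch is chr17:26508582-26508689, minus strand, and its full form lies 143 to 136 bases before the start. GENCODE places it inside an intron of a longer Dusp1 transcript. The Rgs2 stretch is chr1:144004186-144004360, minus strand, with matches 185 to 181 and 67 to 63 bases before the start, and it overlaps no GENCODE gene. A match describes these letters only and says nothing about binding in these cells.

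Each class was compared with chondrocyte-like cells over the sums of the 3 libraries, with the library as a block, by edgeR's quasi-likelihood test (18 sums, 10948 genes tested, Benjamini-Hochberg adjusted p under 0.05). All 10 genes were tested. With the library as a block, the p-values measure how far class differences vary between the 3 libraries, pooled over the classes. These libraries also differ in treatment. Endothelial-like cells differed at 5 genes upward (25% of all genes tested were called higher) and 3 downward (28.5% of all genes). Neutrophil-like cells differed at 6 upward (19.7%) and 2 downward (36.0%), and macrophage or monocyte-like cells at 4 upward (26.3%) and 3 downward (31.3%). Fibroblast or mesenchymal progenitor-like cells differed at 3 upward (20.2%) and 2 downward (20%). In osteoblast-lineage-like cells 0 genes were higher (9.26%) and 1 was lower (10.1%), namely Dusp1. Large shares of all genes were called in these contrasts, so a call by itself does not set a gene apart. The median log2 difference over all genes was -0.70 in neutrophil-like cells and between -0.12 and -0.04 in the other classes. The log2 differences below use TMM scaling, whereas CPM use class totals, so the 2 do not match in size. In the endothelial contrast the median over all genes was -0.09 with TMM and 0.56 without it. There, CPM place genes higher than the log2 differences do.

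**Figure D1:**
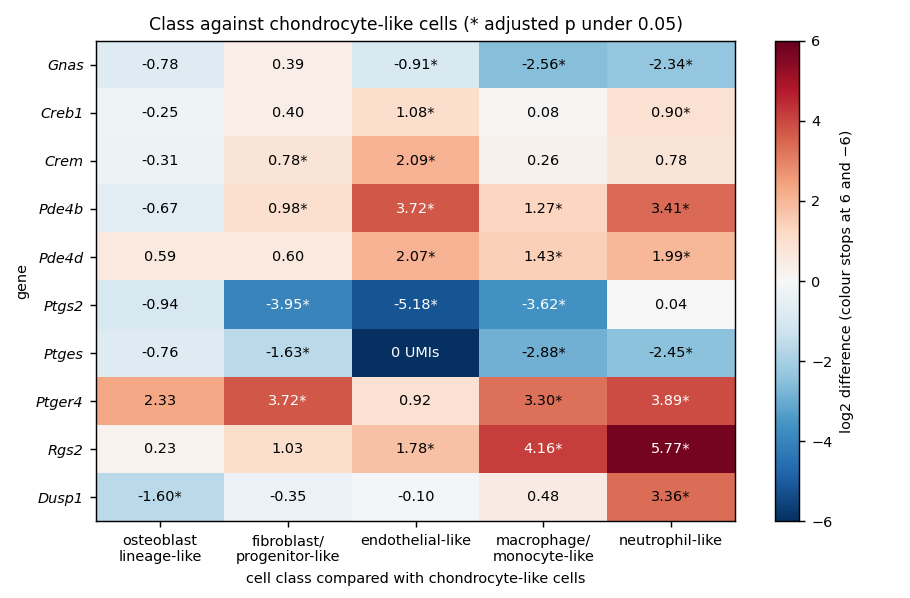
Log2 difference of each gene (rows) between 5 cell classes (columns) and chondrocyte-like cells, from edgeR over the class sums of 3 libraries. Red is higher and blue lower than in chondrocyte-like cells, asterisks mark adjusted p under 0.05, and Ptges had 0 UMIs in endothelial-like cells. Ptgs2 and Ptges are blue in most columns. Pde4b, Pde4d and Rgs2 are red in the endothelial and immune columns and paler red in the fibroblast column (0.98, 0.60 and 1.03).

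Gnas, which encodes the stimulatory G protein alpha subunit, was detected at a high level in every class. Its transcripts come from several promoters of an imprinted locus (chr2:174284320-174346744, GRCm38) and share their 3′ exons, so a 3′ kit counts them together. Nespas overlaps it on the other strand. In chondrocyte-like cells it stood at 1608, 1642 and 1805 CPM in the control, PTH and YKL libraries. In endothelial-like cells the values were 1277, 1387 and 1575 CPM, and in osteoblast-lineage-like cells 1405, 1174 and 1362 CPM. The highest values, 4352, 2653 and 2549.9 CPM, came from fibroblast or mesenchymal progenitor-like cells and did not overlap the chondrocyte values. The osteoblast-lineage difference was -0.78 (SE 0.33, adjusted p = 0.10, edgeR) and was called in 5 of 13 settings: DESeq2 (adjusted p = 0.032), without the control library (0.043), a mitochondrial maximum of 5% (0.026), marked barcodes kept (0.022) and resolution 1.2 (0.039). Macrophage or monocyte-like cells (440.3, 334 and 286 CPM) and neutrophil-like cells (323, 320.5 and 337 CPM) were lowest and overlapped each other. The macrophage or monocyte difference from chondrocytes was -2.56 on the log2 scale (SE 0.35, adjusted p = 8.7e-07, edgeR) and the neutrophil difference was -2.34 (SE 0.36, adjusted p = 9.5e-06). The endothelial difference of -0.91 (SE 0.33, adjusted p = 0.023, edgeR) was not called when class totals were used without TMM scaling (-0.25, adjusted p = 0.30), without the PTH library (adjusted p = 0.13) or without the YKL library (adjusted p = 0.14). Conversely, the fibroblast difference was 0.39 (SE 0.33, adjusted p = 0.36) with TMM and 0.90 (adjusted p = 0.0015) with class totals alone, both from edgeR. With DESeq2's size factors it was 0.60 (adjusted p = 0.038, edgeR). Without TMM, the median of all genes in that contrast was 0.40, against -0.04 with it.

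Among 14 genes for G proteins and adenylyl cyclases, 10 were tested. In endothelial-like cells 3 were higher and 5 lower than in chondrocyte-like cells, and in macrophage or monocyte-like cells 2 were higher and 5 lower. Of 11 receptors that raise cAMP, 6 were tested, and 2 were higher and 2 lower in endothelial-like cells. The parathyroid hormone receptor Pth1r stood at 946, 1084 and 1719 CPM in chondrocyte-like cells and at 17.2, 15.6 and 14.1 CPM in endothelial-like cells, a difference of -6.95 (SE 0.60, adjusted p = 4.9e-10, edgeR). Calcrl, the receptor subunit for adrenomedullin, differed the other way, by 7.25 (SE 0.33, adjusted p = 1.4e-14, edgeR). Of 9 protein kinase A genes, 8 were tested, with 4 higher and 0 lower in endothelial-like cells, among them the regulatory subunit Prkar1a at 0.88 (SE 0.24, adjusted p = 0.0041, edgeR).

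Pde4b encodes a phosphodiesterase that destroys cAMP (chr4:102087543-102607259, GRCm38). It was at 4.10, 6.46 and 6.61 CPM in chondrocyte-like cells of the control, PTH and YKL libraries and at 109, 97.5 and 155 CPM in endothelial-like cells. Every endothelial value was above every chondrocyte value. The difference was 3.72 on the log2 scale (SE 0.30, adjusted p = 1.6e-10, edgeR). Neutrophil-like cells gave 35.0 and 142 CPM in the control and YKL libraries and 0 UMIs in the 21 cells of the PTH library, where 3 counts would be 68.7 CPM, and the difference was 3.41 (SE 0.41, adjusted p = 2.3e-07, edgeR). Pericyte or smooth muscle-like cells, too few in the YKL library for the test, held 53.0 and 50.2 CPM in the control and PTH libraries. Macrophage or monocyte-like cells (21.3, 8.55 and 18.3 CPM) were higher by 1.27 (SE 0.36, adjusted p = 0.0045, edgeR), a call lost without the control library (0.60, adjusted p = 0.34) and with a minimum of 1000 genes per cell (adjusted p = 0.053). The fibroblast difference of 0.98 (SE 0.37, adjusted p = 0.037, edgeR) was lost without the control library (adjusted p = 0.29), without the PTH library (adjusted p = 0.073) with DESeq2 (adjusted p = 0.11) and without the library block (adjusted p = 0.096).

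Pde4d, its close relative, was at 5.40, 7.28 and 6.08 CPM in chondrocyte-like cells and at 29.2, 46.4 and 50.4 CPM in endothelial-like cells, with no overlap. The endothelial difference was 2.07 (SE 0.28, adjusted p = 9.2e-07, edgeR) and the macrophage or monocyte difference 1.43 (SE 0.31, adjusted p = 3.2e-04). The neutrophil difference of 1.99 (SE 0.43, adjusted p = 4.8e-04, edgeR) was lost without the control library (adjusted p = 0.14), the PTH neutrophil sum being at 0 UMIs. Pericyte or smooth muscle-like cells held only 1 and 2 UMIs of Pde4d, against 36 and 24 of Pde4b, in the control and PTH libraries. Of 15 cAMP phosphodiesterases, 11 were tested. Endothelial-like cells had 5 higher and 0 lower, fibroblast or mesenchymal progenitor-like cells 6 and 0, osteoblast-lineage-like cells 3 and 0, neutrophil-like cells 4 and 2, and macrophage or monocyte-like cells 3 and 3. Pde2a, a phosphodiesterase that cyclic GMP stimulates, differed by 7.76 in endothelial-like cells (SE 0.45, adjusted p = 5.4e-13, edgeR), and Pde8a by 1.38 (SE 0.31, adjusted p = 5.5e-04).

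**Figure D2:**
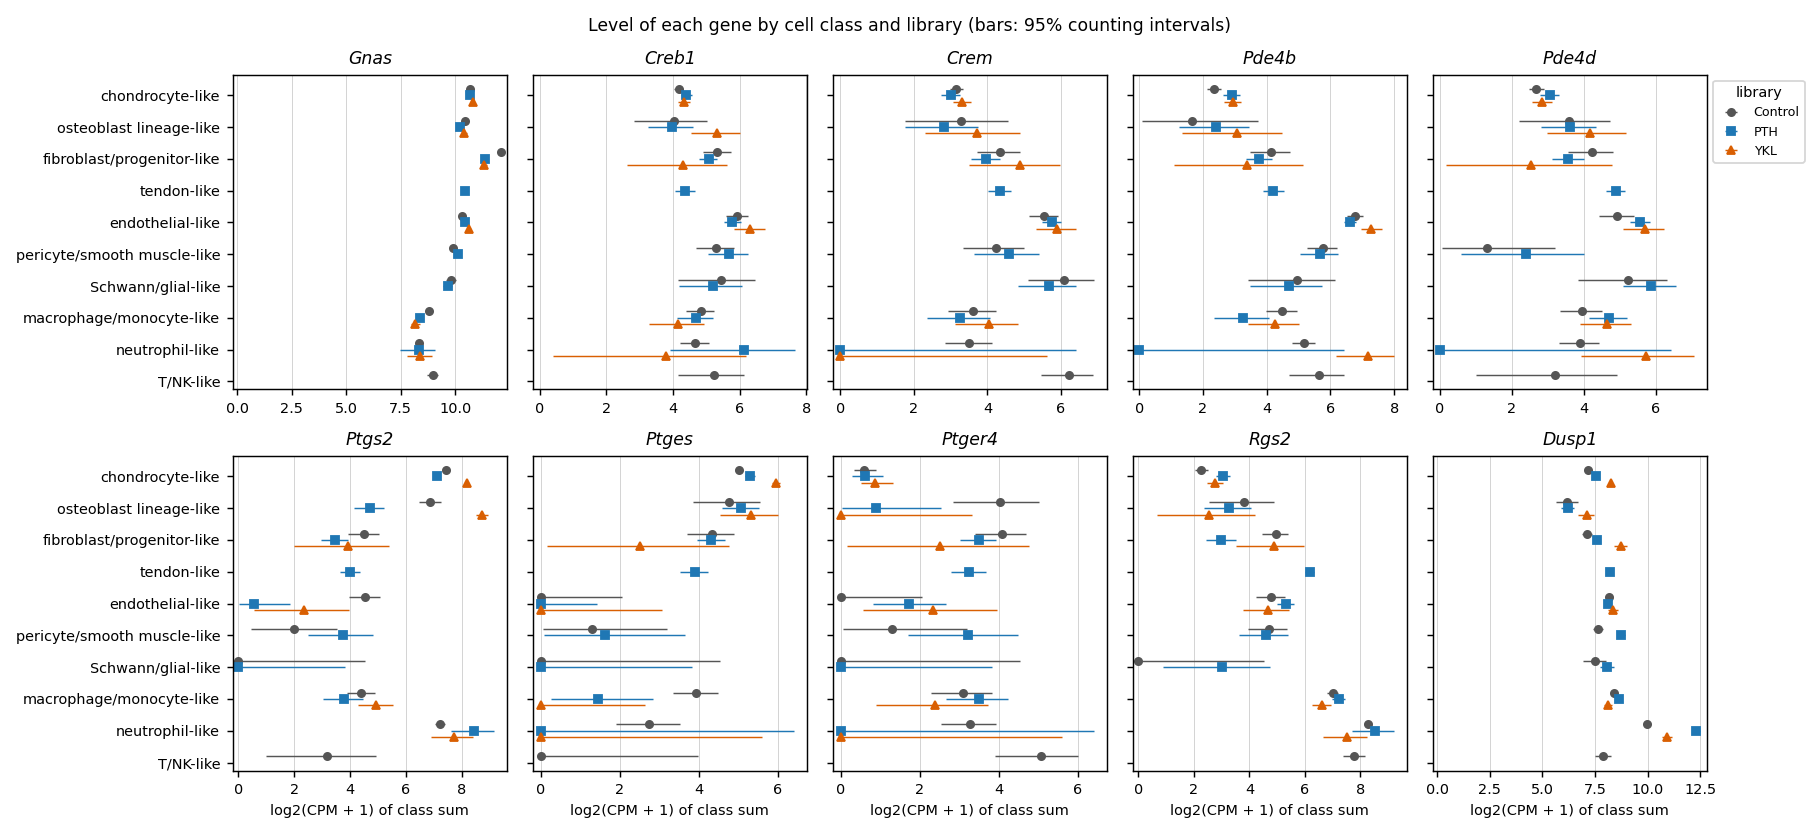
Level of each gene in 10 cell classes as log2(CPM + 1) of the summed cells, with 1 point per library (classes with at least 15 cells in that library) and 95% exact Poisson bars. Ptgs2 and Ptges reach higher levels in chondrocyte-like than in endothelial-like cells, Pde4b and Crem lie the other way, and Rgs2 and Dusp1 are at their right-hand end in neutrophil-like cells.

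Creb1 encodes CREB itself. It was at 17.1, 20.2 and 19.2 CPM in chondrocyte-like cells and at 60.2, 54.3 and 78.6 CPM in endothelial-like cells. The endothelial values lay above all chondrocyte values, and the TMM-scaled log2 difference was 1.08 (SE 0.26, adjusted p = 9.8e-04, edgeR). The neutrophil difference of 0.90 (SE 0.37, adjusted p = 0.045, edgeR) rested on 42, 3 and 1 UMIs. It was lost without the control library (adjusted p = 0.80), without the PTH library (adjusted p = 0.12), without TMM (adjusted p = 0.32), with DESeq2's size factors (adjusted p = 0.10) and with no filter (adjusted p = 0.11).

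Crem encodes a relative of CREB and, from an internal promoter, the short repressor ICER, whose transcripts end in the same 3′ exons and were counted with it. It was at 7.89, 6.98 and 8.96 CPM in chondrocyte-like cells and at 45.6, 52.9 and 58.4 CPM in endothelial-like cells. All 3 endothelial values were higher, and the difference was 2.09 (SE 0.24, adjusted p = 8.4e-08, edgeR). Fibroblast or mesenchymal progenitor-like cells (19.1, 14.5 and 28.3 CPM) also lay above chondrocyte-like cells. That difference of 0.78 (SE 0.28, adjusted p = 0.029, edgeR) was lost without the control (adjusted p = 0.11), the PTH (adjusted p = 0.14) or the YKL library (adjusted p = 0.059), with no filter (adjusted p = 0.079) and without the library block (adjusted p = 0.058). In the small T or NK-like and Schwann or glial-like classes of the control library, Crem reached 72.8 and 66.1 CPM from 18 and 11 UMIs. Of 10 genes of the CREB family and its coactivators, 9 were tested, with 5 higher and 1 lower in endothelial-like cells, 4 and 1 in neutrophil-like cells, and 3 and 0 in fibroblast or mesenchymal progenitor-like cells. Creb3, a family member anchored in the endoplasmic reticulum, was the lower one in endothelial-like cells, at -1.199 (SE 0.24, adjusted p = 1.4e-04, edgeR).

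Rgs2 encodes a regulator that speeds the switching off of G proteins (chr1:143999338-144004161, GRCm38, with the promoter stretch printed above). Chondrocyte-like cells were low, at 3.83, 7.36 and 5.77 CPM. Neutrophil-like cells held 306, 366 and 181 CPM and macrophage or monocyte-like cells 128, 148 and 97.1 CPM, with no overlap between these 2 classes or with chondrocytes. The neutrophil difference from chondrocytes was 5.77 on the log2 scale (SE 0.43, adjusted p = 7.1e-11, edgeR) and the macrophage or monocyte difference 4.16 (SE 0.38, adjusted p = 1.7e-09). Endothelial-like cells (26.7, 38.6 and 24.2 CPM) were higher than chondrocyte-like cells by 1.78 (SE 0.40, adjusted p = 6.4e-04, edgeR). T or NK-like cells of the control library held 218 CPM, and the tendon-like cells of the PTH library 71.1 CPM. Those tendon-like cells supplied 40.4% of all Rgs2 UMIs of the PTH library from 12.6% of its cells, while in the control library neutrophil-like cells supplied 51.6% from 15.1%. Over all genes, these sums held 4108607 of 26682714 and 1741274 of 36295670 UMIs. Fibroblast or mesenchymal progenitor-like cells held 29.97, 6.94 and 28.3 CPM, and their difference of 1.03 (SE 0.46, adjusted p = 0.076, edgeR) became 2.02 (adjusted p = 0.0034) without the PTH library, whose value was the low one. It was called in 7 of 14 settings, with an adjusted p between 0.0034 and 0.94 over them. Of 11 RGS genes tested, 6 were higher and 1 lower in neutrophil-like cells, 6 and 4 in macrophage or monocyte-like cells, and 5 and 0 in endothelial-like cells, where the pericyte and vessel gene Rgs5 differed by 6.01 (SE 0.32, adjusted p = 1.1e-13, edgeR). Rgs5 belongs to the 10 pericyte or smooth muscle markers. These summed to 1334, 796 and 737 CPM in endothelial-like cells and to between 272 and 294 CPM in chondrocyte-like cells, and their part was not tested.

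Dusp1 encodes a phosphatase that switches off MAP kinases and is induced quickly by many stimuli, cAMP among them (chr17:26505590-26562128, GRCm38). It was at 145, 187 and 306 CPM in chondrocyte-like cells and at 1009.6, 5013 and 1968 CPM in neutrophil-like cells. Each neutrophil value exceeded all values of the other tested classes, although the PTH and YKL values rest on 21 and 16 cells, and the difference was 3.36 (SE 0.37, adjusted p = 7.7e-08, edgeR). Endothelial-like cells (291, 282 and 326 CPM) and macrophage or monocyte-like cells (340.2, 394 and 277 CPM) were not called different from chondrocyte-like cells. Their TMM-scaled log2 differences were -0.10 (SE 0.34, adjusted p = 0.82, edgeR) and 0.48 (SE 0.34, adjusted p = 0.24). The endothelial difference was thus slightly negative, although the endothelial CPM lay above the chondrocyte CPM in each library. Osteoblast-lineage-like cells were lowest, at 72.0, 72.8 and 137 CPM, a difference of -1.60 (SE 0.37, adjusted p = 0.0026, edgeR) that was not called when cells over 5% mitochondrial UMIs were left out (-0.78, adjusted p = 0.092). Of 24 genes of dissociation and heat shock, which hold Fos and Junb, 11 were higher and 5 lower in neutrophil-like cells, and 0 were higher and 15 lower in osteoblast-lineage-like cells. Their part in the Dusp1 differences was not tested. Of 10 DUSP genes, 8 were tested, with 5 higher and 2 lower in neutrophil-like cells and 4 higher and 1 lower in endothelial-like cells. Dusp6, a phosphatase for ERK kinases, was higher in endothelial-like cells by 3.67 (SE 0.25, adjusted p = 9.7e-12, edgeR).

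Most UMIs of Ptgs2, the inducible cyclooxygenase (chr1:150100031-150108227, GRCm38), came from chondrocyte-like cells in these libraries. It was at 171, 138 and 291 CPM in chondrocyte-like cells, and these supplied 86.0%, 91.1% and 94.2% of all Ptgs2 UMIs of the control, PTH and YKL libraries from 53.8%, 37.9% and 71.0% of cells. These cells were deep and also held much of the RNA of all genes. They held 26097565 of 36295670 UMIs in control, 13319788 of 26682714 in PTH and 13165574 of 15461885 in YKL. Endothelial-like cells held 22.4, 0.46 and 4.03 CPM, from 26, 1 and 2 UMIs, and were lower by 5.18 on the log2 scale (-5.18, SE 0.61, adjusted p = 1.1e-07, edgeR). The 26 UMIs of the control library stand beside 4255 CPM of 12 neutrophil markers in its endothelial-like cells, against 39.5 and 10.1 CPM in the PTH and YKL libraries, and the part of these markers was not tested. Fibroblast or mesenchymal progenitor-like cells (21.6, 9.95 and 14.2 CPM) and macrophage or monocyte-like cells (20.01, 12.8 and 29.5 CPM) were lower by -3.95 (SE 0.56, adjusted p = 3.3e-06, edgeR) and -3.62 (SE 0.55, adjusted p = 4.1e-06). Neutrophil-like cells held 147, 343 and 207 CPM, which overlapped the chondrocyte values, and their log2 difference of 0.04 (SE 0.54, adjusted p = 0.96, edgeR) was not called. If all Col2a1 in control neutrophil-like cells were chondrocyte RNA, it would carry 35.8 Ptgs2 UMIs, and 256 were counted. Of the 16 YKL UMIs there, 10 lay in 1 cell, and in YKL macrophage or monocyte-like cells 13 of 21 did.

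Osteoblast-lineage-like cells gave widely spread Ptgs2 values of 116, 24.8 and 425 CPM. In the YKL library 161 of the class's 174 Ptgs2 UMIs lay in 1 cell, so that value describes this cell. At the chondrocyte ratio to Col2a1, the class's own Col2a1 would carry 11.2, 23.7 and 19.2 Ptgs2 UMIs, and 53, 29 and 174 were counted, so the PTH value lies close to that amount. The difference from chondrocytes was -0.94 (SE 0.48, adjusted p = 0.18, edgeR) and became -1.89 (adjusted p = 0.0039) without the YKL library.

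Ptges, the inducible synthase that turns prostaglandin H2 into prostaglandin E2 (chr2:30889471-30929863, GRCm38), had a narrower range of cells. It was at 31.2, 38.1 and 61.1 CPM in chondrocyte-like and at 26.2, 32.6 and 39.0 CPM in osteoblast-lineage-like cells, with overlap and no call between them (-0.76, SE 0.42, adjusted p = 0.23, edgeR). Their Ptges UMIs numbered 12, 38 and 16, against 2.04, 6.54 and 4.04 that their Col2a1 would carry. In the YKL osteoblast-lineage-like cells, 9 of the 16 UMIs came from 1 cell. Endothelial-like cells held 0 UMIs of Ptges in all 3 libraries, among 1163157, 2174889 and 496485 UMIs. With a floor of 3 counts per library, chondrocyte-like cells were at least 12.1-fold higher against the control sum, 27.7-fold against the PTH sum and 10.1-fold against the YKL sum (edgeR adjusted p = 5.3e-08). In fibroblast or mesenchymal progenitor-like cells Ptges stood at 19.1, 19.0 and 4.72 CPM, a difference from chondrocyte-like cells of -1.63 (SE 0.43, adjusted p = 0.0040, edgeR). Macrophage or monocyte-like cells (14.4, 1.71 and 0 CPM) were lower by -2.88 (SE 0.50, adjusted p = 3.3e-05, edgeR), and 9 of the 23 control UMIs lay in 1 cell. Neutrophil-like cells held 10, 0 and 0 UMIs, against 6.52 that their Col2a1 would carry in the control library at the chondrocyte ratio. The PTH and YKL neutrophil-like sums held only 43687 and 77229 UMIs of all genes, so 0 Ptges UMIs there say little about its level. Chondrocyte-like cells thus held both enzymes in every library. In the control library, neutrophil-like cells held Ptgs2 with few Ptges UMIs.

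At 2000 UMIs per cell, to which cells were thinned so that depth did not set the shares, Ptgs2 was detected in 24.5% of 1548 control, 20.9% of 704 PTH and 38.0% of 413 YKL chondrocyte-like cells, and unthinned in 63.0%, 58.0% and 78.4%. In endothelial-like cells the thinned shares were 3.52%, 0% and 2.17% of 142, 248 and 46 cells. Ptges was detected in 6.52%, 8.24% and 12.1% of thinned chondrocyte-like cells (27.3%, 25.2% and 45.3% unthinned) and in 0 endothelial-like cells of any library. Unthinned median depths were 16345.5, 17886.5 and 29743.5 UMIs in chondrocyte-like and 5518, 5944 and 7707.5 UMIs in endothelial-like cells. Among thinned chondrocyte-like cells with a Ptgs2 UMI, 9.74%, 15.0% and 13.4% also had a Ptges UMI, against 5.48%, 6.46% and 11.3% of those without. Without thinning, the shares were 32.6%, 33.3% and 50.6% against 18.6%, 15.1% and 28.9%. The share was higher beside Ptgs2 in each library, thinned or not, with all chondrocyte-like clusters pooled. These clusters differed in both enzymes, as given below, and their part in this gap was not tested. The order of the libraries by this gap differed between thinned and unthinned cells, and the thinned YKL value rests on 21 cells with both.

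Ptger4, a prostaglandin E2 receptor coupled to cAMP, had few UMIs in chondrocyte-like cells. Osteoblast-lineage-like cells held 7, 1 and 0 UMIs, and the control value was 15.3 CPM, with 4 of its 7 UMIs in 1 cell. Their difference from chondrocyte-like cells of 2.33 (SE 0.93, adjusted p = 0.083, edgeR) was called in 3 of 11 settings. Chondrocyte-like cells held 13, 7 and 11 UMIs, or 0.50, 0.53 and 0.84 CPM. Fibroblast or mesenchymal progenitor-like cells held 15.8, 10.3 and 4.72 CPM, all above the chondrocyte values although the YKL value is a single UMI, and were higher by 3.72 on the log2 scale (SE 0.63, adjusted p = 3.7e-05, edgeR). Macrophage or monocyte-like cells (7.50, 10.3 and 4.22 CPM) were higher by 3.30 (SE 0.67, adjusted p = 1.7e-04, edgeR). The neutrophil difference of 3.89 (SE 0.86, adjusted p = 5.6e-04, edgeR) came from 15 control UMIs, with 0 UMIs in the PTH and YKL sums, where 3 counts would be 68.7 and 38.8 CPM. The highest level was 32.3 CPM in control T or NK-like cells, from 8 UMIs, and in the PTH library the tendon-like cells held 8.52 CPM. Ttc33 overlaps Ptger4 on the other strand, as Ergic1 does Dusp1 and Gm6225 does Crem. Where counting did not use the strand, reads of such pairs cannot be told apart.

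Of 10 prostaglandin synthesis genes, 9 were tested, with 1 higher and 4 lower in endothelial-like cells, 1 and 4 in fibroblast or mesenchymal progenitor-like cells, 2 and 4 in neutrophil-like cells, 3 and 4 in macrophage or monocyte-like cells, and 0 and 0 in osteoblast-lineage-like cells. Ptgis, the prostacyclin synthase, was at 199, 315 and 421 CPM in chondrocyte-like cells and differed by -7.22 in endothelial-like cells (SE 0.65, adjusted p = 1.1e-09, edgeR). Pla2g4a, the phospholipase that frees arachidonic acid, differed by -7.30 there (SE 0.47, adjusted p = 3.4e-12, edgeR). All 4 prostaglandin removal genes were tested, with 2 higher and 1 lower in endothelial-like cells. The carrier Slco2a1 was higher there by 7.43 (SE 0.33, adjusted p = 1.1e-14, edgeR), and the dehydrogenase Hpgd, which inactivates prostaglandin E2, was lower, by -7.45 (SE 0.82, adjusted p = 3.0e-08). Of 9 prostanoid receptors only 3 had enough UMIs for the test, and 3 were higher and 0 lower in fibroblast or mesenchymal progenitor-like cells. Ptgfr, the receptor for prostaglandin F2α, stood there at 64.1, 63.0 and 137 CPM.

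Within chondrocyte-like cells, the 4 clusters with at least 15 cells in every library (numbers 0, 3, 4 and 5) were compared by an edgeR F test over 12 sums, with the library as a block. Ibsp was the first leading gene of both clusters 3 and 4. Cluster 4 also had Col10a1 and Ihh, genes of hypertrophic cartilage, among its leading genes, and cluster 3 had Comp. Of the 9 genes tested (Ptger4 had too few UMIs), 4 were called against 48.2% of the 9967 genes tested, so the count is near the background. Called were Ptges (adjusted p = 7.8e-05), Ptgs2 (adjusted p = 2.1e-04), Rgs2 (adjusted p = 0.012) and Gnas (adjusted p = 0.019), all from edgeR. Rgs2 lost its call without the control (adjusted p = 0.064) or the YKL library (adjusted p = 0.12) and at resolution 1.2 (adjusted p = 0.22). Gnas lost it without the control (adjusted p = 0.22) or the PTH library (adjusted p = 0.17) and without the library block (adjusted p = 0.073). Creb1 missed the threshold (adjusted p = 0.0504, edgeR) and passed it in 4 of 11 settings, with an adjusted p between 0.0037 and 0.46 over them. The cAMP lists gave 3 called of 9 tested phosphodiesterases, 3 of 8 CREB family genes, 2 of 6 protein kinase A genes and 7 of 8 RGS genes.

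Ptgs2 in cluster 3 was at 66.1, 65.8 and 32.2 CPM in the control, PTH and YKL libraries, below every value of clusters 0, 4 and 5. Cluster 5 held 296, 286 and 382 CPM and cluster 4 held 197, 243 and 309 CPM. In cluster 0 the libraries lay far apart, at 257, 146 and 478 CPM. Ptges in cluster 3 rested on 6, 8 and 7 UMIs, or 5.29, 4.39 and 2.82 CPM. It reached 59.4, 89.8 and 118 CPM in cluster 4 and 107, 115 and 40.7 CPM in cluster 5. Outside the test, cluster 1, led by Ucma, a gene of immature chondrocytes, held 75.4 and 48.6 CPM of Ptgs2 and 7.61 and 5.56 CPM of Ptges in the control and PTH libraries. The 2 enzymes were thus both low in clusters 1 and 3 and both higher in clusters 4 and 5. In cluster 0 Ptges was at 34.4, 15.9 and 37.0 CPM, the YKL value being close to that of cluster 5. Ptgs2 there was above cluster 4 in control and above clusters 4 and 5 in YKL. The 2 enzymes therefore did not run in parallel over all clusters.

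**Figure D3:**
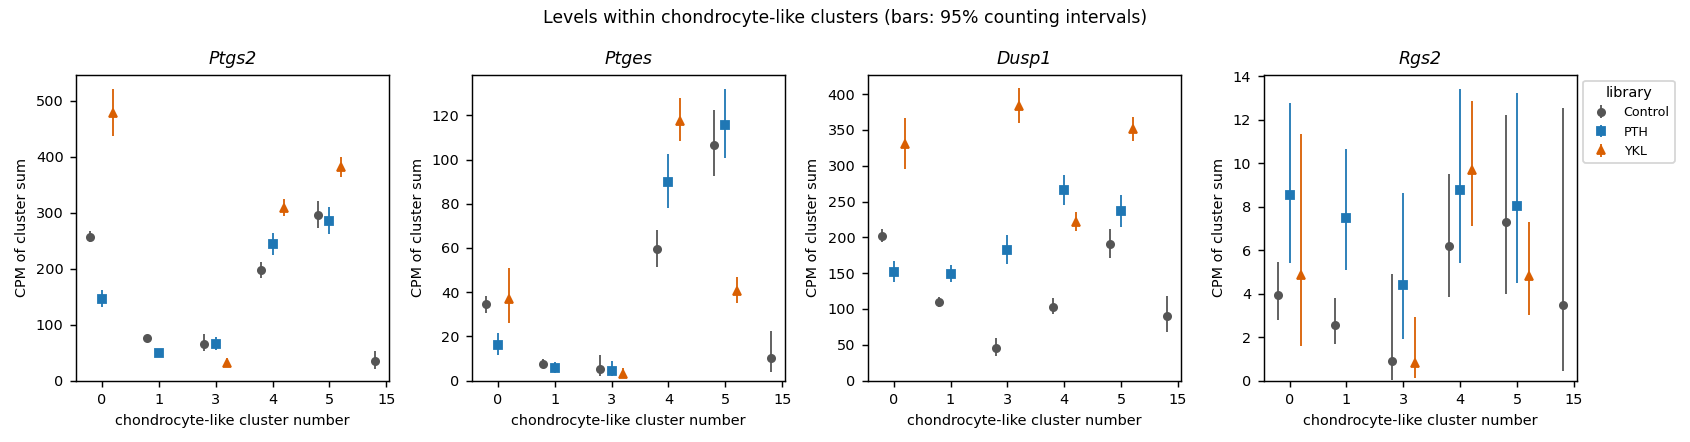
CPM of Ptgs2, Ptges, Dusp1 and Rgs2 in the sums of each chondrocyte-like cluster (x axis, cluster number), with 1 point per library and 95% exact Poisson bars. Ptges is highest in clusters 4 and 5, where the YKL point is the top value in cluster 4 (118 CPM) and the bottom value in cluster 5 (40.7 CPM).

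Between libraries there was 1 sample per group, so no test was possible, and the ratios below carry 95% conditional binomial intervals that cover counting error only. A gene was measured where the 2 libraries held at least 50 UMIs together, and it was counted where the CPM ratio reached 1.5-fold. In chondrocyte-like cells 9 of the 10 genes were measured. Against the control, the YKL library was at least 1.5-fold higher at 5 of them (9.16% of 11575 genes were) and lower at 0 (9.86% of all genes). The PTH library was higher at 2 (6.3% of 11603 genes) and lower at 0 (3.08%). The YKL library was higher than the PTH library at 3 (6.17% of 11001 genes) and lower at 0 (8.74%). The YKL and PTH comparisons with control share the control library. The median log2 ratio of the 9 genes was 0.59 for YKL against control, 0.29 for PTH against control and 0.14 for YKL against PTH, beside -0.04, -0.002 and -0.01 for all measured genes. With cells thinned to 2000 UMIs, only 5, 5 and 4 genes still held 50 UMIs in YKL against control, PTH against control and YKL against PTH, and the counts among them were 3, 0 and 3.

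Dusp1 was higher in YKL than in control chondrocyte-like cells by 2.12-fold (interval 2.02 to 2.21), from 4033 and 3776 UMIs, and higher in PTH by 1.30-fold (1.23 to 1.36). The YKL value was above control in each of the 4 clusters with enough cells, by 1.63-fold in cluster 0, 8.37-fold in cluster 3, 2.15-fold in cluster 4 and 1.84-fold in cluster 5. In the PTH library it was above control in clusters 1 (1.35-fold), 3 (3.98-fold), 4 (2.57-fold) and 5 (1.24-fold) and below it in cluster 0 (0.752). Of the 24 dissociation and heat shock genes, 8 passed 1.5-fold upward and 0 downward in YKL against control chondrocytes, with a median log2 ratio of 0.44. In PTH 5 were higher and 0 lower, with a median of 0.40. Their part in the Dusp1 ratios was not tested. Of 8 measured DUSP genes, 4 were higher and 0 lower in YKL, and Dusp5 was 2.84-fold higher in YKL and 1.94-fold higher in PTH.

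Ptgs2 was higher in YKL than in control chondrocyte-like cells by 1.70-fold (1.63 to 1.77), from 3832 and 4472 UMIs, and lower in PTH, at a ratio of 0.806 (0.763 to 0.851). YKL and PTH stood 2.11-fold apart (1.99 to 2.23). Within clusters, the YKL to control ratio was 1.86 in cluster 0, 1.57 in cluster 4 and 1.29 in cluster 5, but 0.487 in cluster 3. The PTH to control ratio ran from 0.567 in cluster 0 and 0.645 in cluster 1 to 1.23 in cluster 4.

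Ptges was higher in YKL than in control chondrocyte-like cells by 1.96-fold (1.78 to 2.16), and in PTH by 1.22-fold (1.09 to 1.37). This ratio changed with the weight given to each cluster, and the libraries differed in these weights. Cluster 4 held 39.2% of YKL, 14.1% of control and 18.7% of PTH chondrocyte-like cells, cluster 5 held 36.6%, 9.07% and 16.3%, and cluster 1, where Ptges was low, held 1.64%, 34.9% and 29.1%. Within cluster 4 the YKL to control ratio was 1.98 (1.68 to 2.34), in cluster 0 it was 1.07 (0.746 to 1.51), and in cluster 5 it was 0.381 (0.311 to 0.467). With clusters 0, 3, 4 and 5 weighted equally, the ratio was 0.963 for YKL against control and 0.878 for YKL against PTH. Clusters 1 and 15, with 7 and 1 YKL cells, were under the 15 cells needed and were left out.

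Pde4b was higher in both treated libraries, by 1.61-fold (1.2 to 2.16) in YKL and 1.57-fold (1.17 to 2.11) in PTH, from 87, 86 and 107 UMIs in YKL, PTH and control. With cells thinned to 2000 UMIs only 1 YKL and 11 control UMIs remained, and the YKL ratio was then 0.341 (0.00792 to 2.34). The thinned PTH ratio was 2.40 (0.969 to 6), from 12 PTH UMIs. Rgs2 was higher by 1.51-fold (1.10 to 2.05) in YKL and 1.92-fold (1.44 to 2.56) in PTH, from 76, 98 and 100 UMIs. Of the 76 YKL UMIs, 12 lay in 1 cell, and the YKL ratio only just reached 1.5-fold. Thinned, the Rgs2 ratios were 1.76 (0.659 to 4.31) in YKL and 1.29 (0.529 to 2.99) in PTH, from 8, 10 and 17 UMIs in YKL, PTH and control. In YKL and control, Rgs2 stood at 4.87 and 3.96 CPM in cluster 0 and at 9.68 and 6.20 CPM in cluster 4. It stood at 4.81 and 7.29 CPM in cluster 5, and cluster 3 held only 2 and 1 UMIs. Within clusters 0 and 1 the PTH to control ratio of Rgs2 was 2.15 (1.22 to 3.72) and 2.91 (1.67 to 5.15). Gnas differed by 1.12-fold in YKL and 1.02-fold in PTH, with intervals of 1.10 to 1.14 and 1.00 to 1.04. Within clusters, the YKL to control ratio of Gnas ran from 1.02 (0.970 to 1.07) in cluster 3 to 1.56 (1.48 to 1.63) in cluster 5, and the PTH ratio from 0.931 in cluster 3 to 1.14 in cluster 0. The Creb1 ratios were 1.13 (0.962 to 1.32) and 1.18 (1.01 to 1.38), those of Crem 1.14 (0.898 to 1.43) and 0.885 (0.685 to 1.14), and those of Pde4d 1.12 (0.844 to 1.49) and 1.35 (1.03 to 1.76), YKL first and PTH second. None of these 4 reached 1.5-fold over the class, and the intervals of Creb1, Crem and Pde4d in YKL hold 1.

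Of the wider pathway in chondrocyte-like cells, Pth1r was 1.82-fold higher in YKL and 1.15-fold higher in PTH than in control. Its levels in control and YKL were 2431 and 2266 CPM in cluster 4, 1818 and 1922 CPM in cluster 3, 738 and 1239 CPM in cluster 0, and 481 and 1145 CPM in cluster 5. The libraries differed in their shares of these clusters, given above, and class ratios of the wider pathway include that difference. Of 7 measured synthesis genes, 3 were at least 1.5-fold higher in YKL (Ptgs2, Ptges and Ptgis, the last by 2.11-fold), and in PTH 2 were, among them Ptgis by 1.58-fold. The removal enzyme Hpgd was 2.14-fold higher in YKL and 1.69-fold in PTH. Of 9 measured phosphodiesterases, 2 were higher in YKL, Pde4b and Pde8a (1.75-fold), and 0 were lower. Of 9 measured G protein and cyclase genes 0 were higher and 3 lower, of 7 protein kinase A genes 1 was higher and 0 lower, of 10 CREB family genes 1 was higher and 0 lower, and of 8 RGS genes 2 were higher and 3 lower, all in YKL against control.

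**Figure D4:**
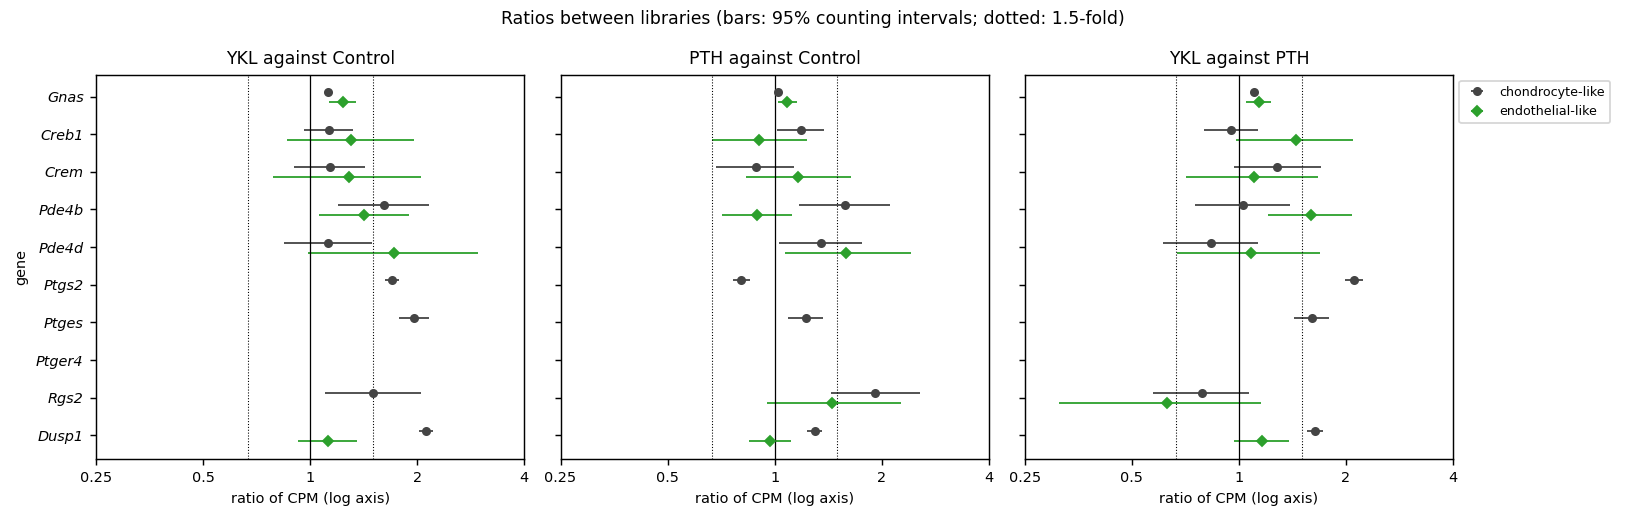
Ratio of CPM between libraries (x axis, log scale) for each measured gene in chondrocyte-like (circles) and endothelial-like cells (diamonds), with 95% counting intervals and dotted lines at 1.5-fold. In chondrocyte-like cells, Ptgs2, Ptges and Dusp1 lie to the right of 1.5 in YKL against control (1.70, 1.96 and 2.12) and in YKL against PTH (2.11, 1.60 and 1.63).

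In endothelial-like cells, where the YKL sum came from 50 cells, 6 of the 10 genes were measured for YKL against control and 7 in each of the other 2 comparisons. Pde4d was 1.72-fold higher in YKL than in control (0.985 to 2.97), from 25 and 34 UMIs, and it was the 1 gene higher, with 0 lower (9.16% and 7.42% of 4935 genes). It was also the 1 gene higher in PTH than in control, by 1.59-fold (1.07 to 2.42), with 0 lower (6.72% and 4.64% of 7236 genes). Between YKL and PTH, Pde4b was 1.59-fold higher (1.21 to 2.07) and Rgs2 lower, at 0.626 (0.311 to 1.15), so 1 gene was higher and 1 lower (8.51% and 8.76% of 6577 genes). Rgs2 rested on 12 YKL UMIs, 5 of them in 1 cell. In this class erythroid markers summed to 12259, 1104 and 1519 CPM and neutrophil markers to 4255, 39.5 and 10.1 CPM in control, PTH and YKL. Of the dissociation and heat shock genes, 7 were higher and 0 lower in each treated library against control. The part of these genes in the endothelial ratios was not tested. With cells thinned to 2000 UMIs, Pde4d fell under the 50 UMIs needed, with 8, 23 and 8 UMIs in control, PTH and YKL, and its ratios to control were 3.09 (1.01 to 9.44) in YKL and 1.65 (0.711 to 4.26) in PTH. Without the 5% of cells with the most UMIs, 0 passed in PTH against control. Dusp1 ratios to control were 1.12 (0.925 to 1.36) in YKL and 0.970 (0.848 to 1.11) in PTH, and those of Gnas 1.23 (1.13 to 1.35) and 1.09 (1.02 to 1.16).

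Other classes had 50 cells in both libraries only for PTH against control. In fibroblast or mesenchymal progenitor-like cells all 10 genes were measured, with 0 higher and 5 lower in PTH (10.0% and 6.78% of 7938 genes). These were Rgs2 at a ratio of 0.231 (0.131 to 0.401), Ptgs2 at 0.460 (0.267 to 0.801), Gnas at 0.610 (0.589 to 0.631), Pde4d at 0.621 (0.353 to 1.12) and Ptger4 at 0.648 (0.360 to 1.2). Of the 33 PTH Ptgs2 UMIs there, 9 lay in 1 cell. The 36 control Rgs2 UMIs came from 12 cells, with 7 of them in 1 cell. Dusp1 stood on the other side, at 1.38 (1.16 to 1.65), beside 9 of 23 measured dissociation and heat shock genes that were higher and 0 lower. The 288 PTH and 114 control cells of this class also differed in haemoglobin RNA (Hbb-bs at 3968 and 15491 CPM). Markers of the immune classes where Rgs2 was high differed too. In PTH and control, macrophage or monocyte markers summed to 22.6 and 160 CPM, T or NK markers to 3.32 and 118 CPM, and neutrophil markers to 20.2 and 51.6 CPM. The part of these differences in the ratios was not tested. In macrophage or monocyte-like cells 5 genes were measured, with Pde4d higher by 1.72-fold (0.963 to 3.12), where 10 of its 29 PTH UMIs lay in 1 cell, so 1 was higher and 0 lower (18.2% and 8.44% of 5489 genes). In the same class, 8 osteoclast markers summed to 2435 CPM in control and 12500 CPM in PTH, and 8 erythroid markers to 41475 and 10554 CPM. Their part in the Pde4d ratio was not tested. In pericyte or smooth muscle-like cells 4 genes were measured, and Dusp1 was higher by 2.12-fold (1.70 to 2.66), so 1 was higher and 0 lower (11.5% and 3.96% of all measured genes). There 7 of 23 dissociation and heat shock genes were higher and 1 lower.

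**Figure D5:**
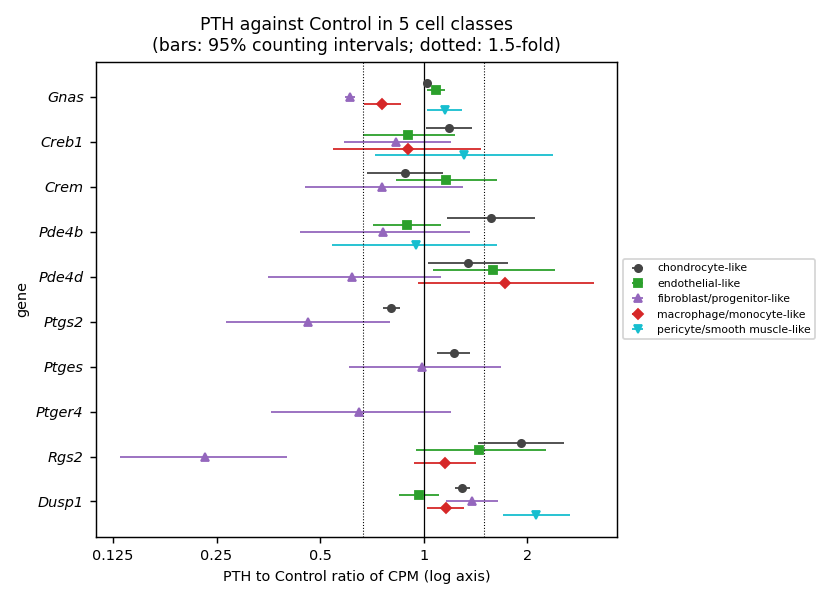
PTH to control ratio of CPM (x axis, log scale) of each measured gene in 5 cell classes, with 95% counting intervals and dotted lines at 1.5-fold. Rgs2 lies to the right in chondrocyte-like cells (1.92) and to the left in fibroblast or mesenchymal progenitor-like cells (0.231), and Dusp1 is farthest right in pericyte or smooth muscle-like cells (2.12).

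The genes whose levels were most like each member were found by Pearson's r of log2(CPM + 10) over 24 class-by-library sums, among 6695 genes. These sums share libraries and classes, and r is a description. Nearest to Ptgs2 were Slc16a3, a lactate exporter (0.92), Ell2 (0.84) and the glycolytic enzyme Pkm (0.81), and nearest to Ptges were Capn6 (0.92), Emilin1 (0.91) and Pycr1 (0.91). Nearest to Gnas were Grb10 (0.92), Praf2 (0.90) and Tram2 (0.90). Nearest to Pde4b were Btbd9 (0.86), Dnm2 (0.83) and Fryl (0.83), to Pde4d Lmo1 (0.84), Eps15 (0.79) and Tspan14 (0.79), to Creb1 Uba7 (0.84) and Ino80d (0.80), and to Crem Mkln1 (0.87), Fyn (0.87) and Ndfip2 (0.85). Nearest to Rgs2 were the leukocyte cytoskeleton genes Fmnl1 (0.91) and Coro1a (0.91), and Gmfg (0.91). Nearest to Dusp1 were Srsf5 (0.90) and Bcl10 (0.90), and to Ptger4 Avl9 (0.75), Sept6 (0.68) and Socs1 (0.66). Among the 10 genes themselves the highest r was 0.72, between Rgs2 and Dusp1, followed by 0.56 for Pde4b and Pde4d and 0.53 for Ptgs2 and Ptges, and the lowest was -0.75, between Crem and Ptgs2.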

How the data were processed

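Droplet 3′ single-cell RNA-seq was made from 3 day 7 callus samples. The deposited files give unnormalised UMI counts for each gene in each barcode, and per the file headers the authors made them in Cell Ranger 4.0.0. The submitters' processing notes also name Seurat and mm10, and other settings, strand handling included, are not given in the sources used here. The lowest barcode total was 500 UMIs in each library.

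Barcodes needed 500 genes or more, with mitochondrial UMIs no higher than 10%. Scrublet marked 16, 7 and 8 of the 3436, 2438 and 687 barcodes with enough genes (control, PTH, YKL), which were removed. That is too few to have worked in control and PTH, so doublets can remain. Cells were clustered with scanpy 1.11.5 (2000 variable genes without the 10 members, 30 components, 15 neighbours, Leiden resolution 0.8, no integration). Classes were named "-like" from marker lists. The clustering settings and the scoring rule were chosen after the clusters were seen, and clusters stayed unnamed with haemoglobin over 10%, or with more markers of another class and at most 1 of their own among their 10 leading genes. The osteoblast-lineage cluster (10 of 12 own markers) also held 12 chondrocyte markers, and the tendon cluster (6 of 6) 12 fibroblast markers. Names went to the list with the highest mean log2 fold, and both had 3 own markers among those 10 genes. Rebuilt names can differ from the authors' own. Members, gene lists and tests were chosen with earlier results of these data known.

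UMIs were summed per class and library (at least 15 cells) and tested with edgeR 4.0.16 (TMM, library block, low counts filtered), with DESeq2 1.42.0 as an alternative. Tests were checked on simulated counts. Library ratios needed at least 50 cells in both. Intervals are at 95% (exact Poisson, Clopper-Pearson or conditional binomial), and a floor of 3 counts stands for 0. They cover counting error only. All 10 members were named, with the 3 most alike genes of each and the leading genes of each pathway list by level. Of the alike genes, 1 each for Creb1 and Dusp1 is not reported here. Gene spans are from GENCODE (GRCm38), and promoters from RefSeq.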

Additional observations from a re-analysis of the deposited data

Results flagged for a closer look

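For 2 genes, the PTH to control ratio passed 1.5-fold in opposite directions in different cell classes, with 1 library per group and no test of the difference between classes. Rgs2 was higher in PTH chondrocyte-like cells (1.92) and lower in PTH fibroblast or mesenchymal progenitor-like cells (0.231). The control fibroblast value rested on 36 UMIs, 7 of them in 1 cell. Macrophage, T or NK and neutrophil markers were also higher in that control sum, and their part was not tested. Pde4d was higher in PTH endothelial-like cells (1.59) and macrophage or monocyte-like cells (1.72) and lower in fibroblast or mesenchymal progenitor-like cells (0.621), and the macrophage and fibroblast intervals hold 1.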

How the results depend on the processing

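Each count was recomputed under other filters, clusterings, scalings and tools. No paired analysis was possible because each group has 1 library, so the groups share only 1 replicate number. With cells thinned to 2000 UMIs, 3 genes (main 5) passed 1.5-fold in chondrocyte-like cells for YKL against control, 0 (main 2) for PTH against control, and in endothelial-like cells 0 (main 1) in both. Thinning left 5 chondrocyte genes measured in both comparisons, and 2 (YKL) and 4 (PTH) endothelial genes, so these lower counts come in part from fewer genes measured. With the chondrocyte clusters of at least 15 cells in both libraries weighted equally, the counts were 3 for YKL and 4 for PTH against control. Cluster 1 had too few YKL cells and entered only the PTH against control count. In endothelial-like cells, a minimum of 200 genes gave 2 for YKL and 2 for PTH against control, a mitochondrial maximum of 20% gave 2 for PTH, leaving out the top 5% of UMIs gave 0 for PTH, and resolution 1.2 gave 1 (main 2) for YKL against PTH. Of the ratios, 3 turned direction: Pde4b in YKL against control chondrocytes to 0.341 when thinned, and Ptges with clusters weighted equally to 0.963 (YKL against control) and 0.878 (YKL against PTH).

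For classes against chondrocyte-like cells, the fibroblast count of 5 became 9 with class totals without TMM, an alternative chosen after seeing the data, and 3 without the library block. The osteoblast-lineage count of 1 became 2 with DESeq2, without TMM, with marked barcodes kept and at resolution 1.2, and 4 with no filter. Leaving out 1 library in turn gave 7 to 8 called genes in endothelial (main 8), 2 to 4 in fibroblast, 5 to 7 in macrophage or monocyte (main 7), 5 to 8 in neutrophil (main 8) and 1 to 3 in osteoblast-lineage contrasts, and 2 to 4 among chondrocyte clusters (main 4). No log2 difference past the threshold changed sign. The cause of these changes was not tested. Depth limits Ptger4 in chondrocyte-like cells, the PTH and YKL neutrophil sums (21 and 16 cells), and the ratios of Rgs2, Pde4b and Pde4d.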
